A study of Mus musculus with 24 samples.

Results

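Thrombospondins, periostin, tenascin C, osteopontin, SPARC, the TGF-beta-induced protein and fibronectin are secreted proteins that cells lay down in the extracellular matrix. Their transcripts were followed in mouse sciatic nerve by the gene symbols Thbs1, Thbs2, Thbs3, Thbs4, Postn, Tnc, Spp1, Sparc, Tgfbi and Fn1. All 10 were among the 24421 genes of the count table, and all 10 were among the 15385 genes that passed the filter on low counts. The genes were chosen by earlier results of these same libraries, their levels over the treatment groups, although the rule itself names symbols and no value. Their fold changes and p-values are therefore a description of these genes and support nothing further.

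Bulk RNA sequencing was done on sciatic nerves labelled as plexiform neurofibroma, a tumour of the nerve sheath. Every group, vehicle included, had the genotype Nf1 flox/flox PostnCre+, in which a Cre recombinase under the periostin promoter removes floxed Nf1, the gene of the RAS inhibitor neurofibromin. The 4 groups held 6 libraries each after 1 week of vehicle, of LY3214996 (an inhibitor of the kinases ERK1/2, called ERKi here), of abemaciclib (an inhibitor of the kinases CDK4/6, called CDKi here) or of both (the combination). No group with intact Nf1 was analysed here, and the labels give no age, dose or animal number. The labels do not say that each library is a separate animal, so the p-values measure the spread between these libraries, which may in part be technical.

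Most of these proteins are called matricellular: they carry signals between matrix and cells more than they build the scaffold. Thrombospondins bind CD36, CD47 and integrins, and thrombospondin 1 can release TGF-beta from its latent form. Fibronectin forms fibrils that integrins pull on, and periostin, tenascin C and osteopontin are known from wounds, injured nerve and tumour stroma. In peripheral nerve the matrix is made by Schwann cells, perineurial cells and endoneurial fibroblasts.

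In GENCODE M21 coordinates of mm10, Thbs1 lies at chr2:118111876-118127133, Thbs2 at chr17:14665500-14694235, Thbs3 at chr3:89215180-89226837 and Thbs4 at chr13:92751590-92794818. Postn lies at chr3:54361109-54391037, Tnc at chr4:63959785-64047015, Spp1 at chr5:104435118-104441050 and Sparc at chr11:55394500-55423183. Tgfbi lies at chr13:56609523-56639562 and Fn1 at chr1:71585520-71653200. All 10 are annotated as protein-coding. Whether reads were counted by strand is not given in the sources used here, so reads shared with exons on the opposite strand could not be told apart. Such exons overlap Thbs3 over 318 bases (Mtx1) and Fn1 over 292 bases (Apol7d), and both neighbours have their own row of counts.

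Sequence upstream of the start was matched in RefSeq (GRCm38.p6) for 8 of the 10 genes, all but Thbs1 and Fn1. The 4 sequences below are shown because Postn drives the Cre of these mice, Tgfbi and Thbs4 varied closely with Thbs1 and Fn1 between libraries, and Spp1 varied with Sparc. Each runs 5′ to 3′ along the gene's own strand and ends at the base before the start. Capitals mark matches to short motifs named after the sequences. The transgene's own promoter fragment is not given in the labels.
Postn (chr3:54360857-54361106, plus strand): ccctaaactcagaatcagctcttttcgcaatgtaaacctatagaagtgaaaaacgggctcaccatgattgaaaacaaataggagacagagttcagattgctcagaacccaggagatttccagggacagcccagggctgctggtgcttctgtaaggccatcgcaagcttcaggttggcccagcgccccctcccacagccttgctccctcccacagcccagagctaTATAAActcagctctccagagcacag
Tgfbi (chr13:56609336-56609522, plus strand): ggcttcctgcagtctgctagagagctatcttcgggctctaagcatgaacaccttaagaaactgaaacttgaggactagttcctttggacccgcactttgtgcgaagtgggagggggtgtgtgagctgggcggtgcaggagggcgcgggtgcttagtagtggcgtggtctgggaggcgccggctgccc
Thbs4 (chr13:92794819-92795068, minus strand): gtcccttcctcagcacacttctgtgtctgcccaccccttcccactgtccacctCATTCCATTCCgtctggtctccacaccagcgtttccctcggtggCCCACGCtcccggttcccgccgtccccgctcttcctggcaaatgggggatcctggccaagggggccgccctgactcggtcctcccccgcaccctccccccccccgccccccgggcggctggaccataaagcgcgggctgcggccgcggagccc
Spp1 (chr5:104434861-104435110, plus strand): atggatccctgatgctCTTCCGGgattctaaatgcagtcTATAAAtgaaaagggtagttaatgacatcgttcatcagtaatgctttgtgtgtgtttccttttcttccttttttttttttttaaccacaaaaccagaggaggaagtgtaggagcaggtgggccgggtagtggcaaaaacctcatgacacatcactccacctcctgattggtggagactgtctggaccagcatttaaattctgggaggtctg
The motif TATAAA, the letters of a TATA box (plus strand only), begins 26 bases before the start in Postn, 126 in Tnc and 211 in Spp1. It was found in 3 of the 8 windows, against 7.59% of 32851 RefSeq promoter windows of 250 bases. The Tgfbi window was searched over 250 bases and is shown over the 187 that precede the GENCODE start. The ETS motif CCGGAAG stood in Spp1 alone of the 8, on the minus strand, and in 6.91% of all windows. The EGR motif GCGTGGG stood in Thbs4 alone (4.3% of all windows). The TEAD motif GGAATG also stood in Thbs4 alone, as 2 matches on the minus strand that share 1 base (12.6% of all windows). The AP-1 motif TGANTCA, the SMAD motif GTCTAGAC and the CArG box of serum response factor had no match in the 8 windows, against 6.75%, 0.167% and 1.47% of all windows. All motifs but TATAAA were searched on both strands. These are matches of letters, and no binding was measured.

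The libraries held 5391543 to 42321550 counts. Myelin genes, the mark of a nerve, were high in every group, with a list mean of 9.31 ± 0.20 log2 CPM in vehicle (SD, n = 6; CPM are counts scaled to library size). Transcripts of sensory neurons differed between libraries of the same group: 6 libraries (vehicle 1 and 5, CDKi 3 and 5, combination 3 and 5) had a neuronal list mean under 6 log2 CPM, and the other 18 reached at least 7.28. Liver transcripts (Alb above 100 CPM) stood in ERKi 3, CDKi 1 and CDKi 3. ERKi 3 was the lowest of its group for 9 of the 10 genes, all but Tnc, and CDKi 1 was the lowest of its group for 7. Y-linked transcripts stood above 100 CPM in 4 vehicle, 3 ERKi, 4 CDKi and 3 combination libraries, and ERKi 3 and CDKi 3 lay between these and the rest at 16.2 and 16.6 CPM. Whether ERKi 3 and CDKi 3 hold RNA of more than 1 animal was not tested.

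Per kilobase of exon, Sparc was the most abundant of the 10 in vehicle nerves at 1283 ± 306 CPM per kb (SD, n = 6). Spp1 followed at 496 ± 111 CPM per kb, and its libraries did not overlap those of Sparc. Fn1 stood at 141 ± 40.1 CPM per kb, below every library of Spp1. Postn (100 ± 53.5), Tgfbi (90.9 ± 24.3) and Thbs4 (87.5 ± 26.8 CPM per kb) lay within one another's spread and within that of Fn1. Thbs2 (57.7 ± 20.5) and Thbs1 (57.3 ± 19.3 CPM per kb) could not be ordered either, and their libraries overlapped those of Thbs4. Tnc at 6.90 ± 2.54 and Thbs3 at 3.42 ± 0.40 CPM per kb were the least abundant, with libraries that overlapped each other and none of the other 8. Together the 10 genes took 0.951% ± 0.187 of all counts in vehicle (SD, n = 6), 0.651% ± 0.270 after ERKi, 0.821% ± 0.261 after CDKi and 0.555% ± 0.144 after the combination.

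**Figure D1:**
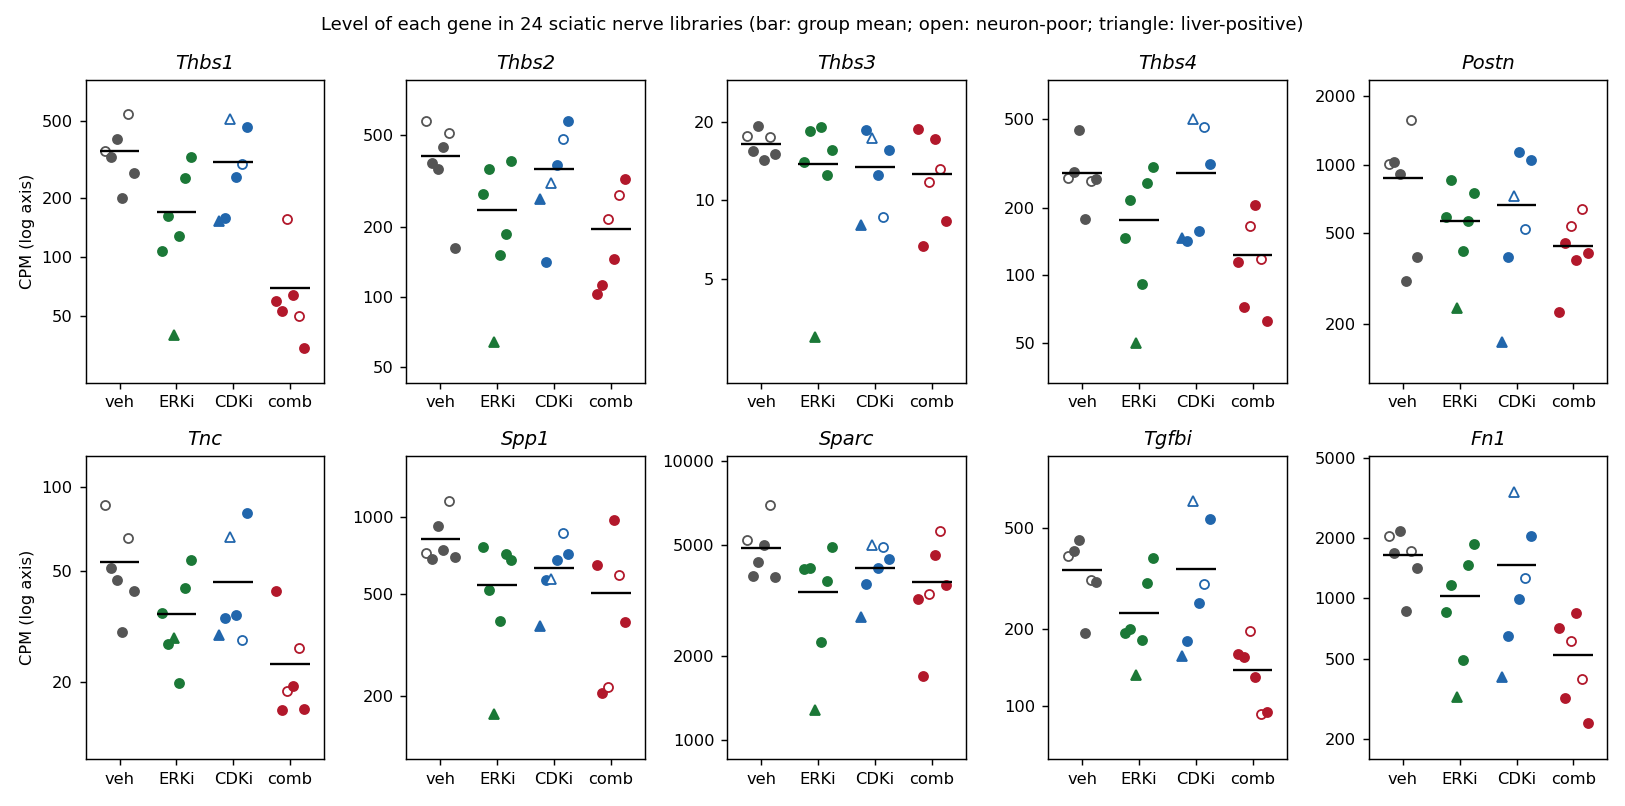
Level of each gene in CPM, TMM-scaled counts relative to library size (log axis), in the 6 libraries of vehicle (veh), ERKi, CDKi and the combination (comb); bars are group means, open symbols the 6 neuron-poor libraries and triangles the 3 libraries with liver transcripts. For Thbs1 and Fn1 all combination libraries lie below all vehicle libraries; the other 8 genes overlap.

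Thbs1, which encodes thrombospondin 1, fell after the combination. In vehicle its level ran from 200.2 to 540 CPM with a median of 339. After ERKi it ran from 40.1 to 324 CPM (median 145) and after CDKi from 153 to 508 CPM (median 279). After the combination it ran from 34.1 to 157 CPM with a median of 56.1. Every combination library lay below every vehicle library, while 4 of 6 ERKi and 2 of 6 CDKi libraries lay below the lowest vehicle library. The group means were 348 ± 117 CPM in vehicle, 169 ± 103 after ERKi, 307 ± 151 after CDKi and 69.5 ± 44.0 after the combination (SD, n = 6 each). Against vehicle, the log2 fold change of Thbs1 after the combination was -2.33 ± 0.44 (SE), a level 5.01-fold lower, with an edgeR quasi-likelihood adjusted p of 0.0361. Thbs1 ranked 9 of 15385 genes by p in that comparison.

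Thbs1 was the 1 gene of the 10 called in the combination against vehicle, where 19 genes were called in all (0.123% of genes tested, and 0.11% called lower). The members were chosen with these results known, so nothing is read from that count. The direction of Thbs1 was the same in all 40 alternative fits, with log2 fold changes from -2.75 to -1.78, but its call was not. The call was lost in 15 of the 24 fits that each left out 1 library, where the adjusted p reached 0.113. It was also lost without the 6 neuron-poor libraries (-2.52, adjusted p = 0.255) and without the deepest and the shallowest library (-2.31, adjusted p = 0.192).

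**Figure D2:**
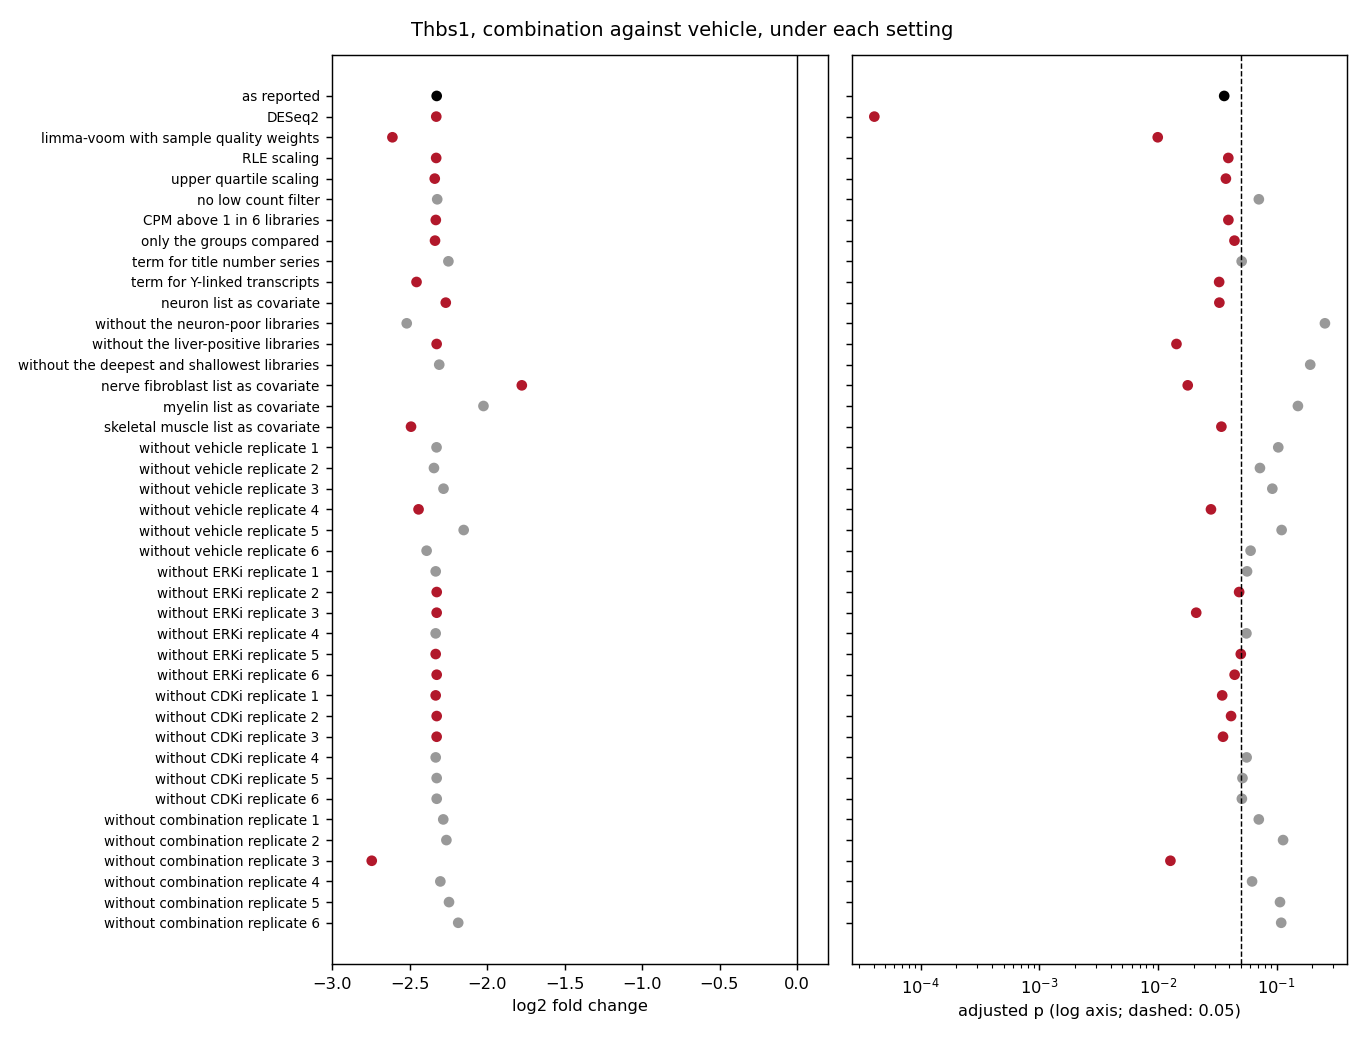
Thbs1 in the combination against vehicle: log2 fold change (left) and adjusted p (right, log axis, dashed line at 0.05) as reported (black) and under 40 alternative settings, red where the adjusted p is under 0.05 and grey where it is not. All fold changes lie between -2.75 and -1.78, while the adjusted p lies on both sides of the line.

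The values for single agents share the vehicle libraries with the combination. Thbs1 after ERKi had a log2 fold change of -1.04 ± 0.43 (SE; unadjusted p = 0.0225, adjusted p = 0.672), and after CDKi of -0.18 ± 0.42 (95% interval -1.06 to 0.70, adjusted p = 1.00). Without ERKi 3, the ERKi value was -0.84. Set against ERKi alone, the combination had a Thbs1 log2 fold change of -1.28 ± 0.43 (adjusted p = 0.450), and against CDKi alone of -2.14 ± 0.44 (adjusted p = 0.175). The libraries of the combination overlapped those of ERKi and, by the highest combination library alone, those of CDKi.

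Thbs2 encodes the thrombospondin closest to thrombospondin 1, likewise a trimer that carries the anti-angiogenic repeats. It ran from 162 to 574 CPM in vehicle (median 411), from 64.3 to 387 CPM after ERKi (median 233), from 142 to 577 CPM after CDKi (median 342) and from 103 to 324 CPM after the combination (median 182). Only 3 of 6 combination libraries lay below the lowest vehicle library, so the groups overlapped. The log2 fold change in the combination was -1.04 ± 0.40 (SE, adjusted p = 0.282). Against ERKi alone the combination gave -0.27 for Thbs2, with a 95% interval of -1.10 to 0.55.

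Thbs3 and Thbs4 encode the pentameric thrombospondins, of which thrombospondin 4 is known from tendon, muscle and injured sensory ganglia. Thbs4 ran from 178 to 448 CPM in vehicle (median 271), from 49.6 to 304 CPM after ERKi (median 182), from 142 to 501 CPM after CDKi (median 236) and from 62.7 to 206 CPM after the combination (median 117). Of the 6 combination libraries, 5 lay below the lowest vehicle library. Its log2 fold change was -1.22 ± 0.41 after the combination (SE, adjusted p = 0.214). After CDKi the Thbs4 estimate was near 0 with a 95% interval of -0.85 to 0.84, and it was -0.63 without the 6 neuron-poor libraries. Thbs3 was scarce, at 16.5 ± 1.92 CPM in vehicle and 12.6 ± 4.74 CPM after the combination (SD, n = 6). Its log2 fold change was -0.38 ± 0.31 (SE, adjusted p = 0.708). The ERKi value of Thbs3 rested on 1 library: it was -0.25 with ERKi 3 and -0.05 without it.

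Fn1 encodes fibronectin, whose fibrils integrins assemble at the cell surface. It ran from 862 to 2165 CPM in vehicle (median 1705), from 324 to 1866 CPM after ERKi (median 1010), from 406 to 3394 CPM after CDKi (median 1133) and from 239.5 to 845 CPM after the combination (median 506). Every combination library lay below every vehicle library, the second of the 10 genes with this pattern beside Thbs1. Groups that did not overlap in that direction were seen for 89 of all genes tested (0.578%). The log2 fold change of Fn1 was -1.66 ± 0.46 (SE), which did not pass the threshold in edgeR (adjusted p = 0.136). It passed in DESeq2 (adjusted p = 0.0181, with 272 genes called in all). It also passed in edgeR without the 3 libraries with liver transcripts (adjusted p = 0.0336, with 108 genes called in all). After CDKi, Fn1 had the widest spread of the 10 genes, with a coefficient of variation of 75.7%, and its log2 fold change went from -0.18 to -0.61 without CDKi 3.

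Tgfbi and Postn encode the paired fasciclin-domain proteins of the matrix, the first of them named for its induction by TGF-beta. Tgfbi ran from 194 to 450 CPM in vehicle (median 350), from 133 to 382 CPM after ERKi (median 197), from 157 to 641 CPM after CDKi (median 278) and from 92.9 to 197 CPM after the combination (median 143). A single combination library reached the vehicle range, and it exceeded the lowest vehicle library only narrowly. The log2 fold change of Tgfbi was -1.31 ± 0.33 (SE, adjusted p = 0.0988). Its adjusted p was 0.00989 in DESeq2 (272 genes called in all) and 0.0280 in edgeR without the libraries with liver transcripts (108 genes). With CDKi alone as the reference, the Tgfbi estimate in the combination was a log2 value of -1.32 ± 0.33 (SE), which was not called (adjusted p = 0.240).

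Postn, whose promoter also drives the Cre of these mice, overlapped widely between groups. It ran from 310 to 1573 CPM in vehicle (median 959), from 234 to 853 CPM after ERKi (median 575), from 166 to 1134 CPM after CDKi (median 624.6) and from 226 to 638 CPM after the combination (median 433). A single combination library lay below the lowest vehicle library. The log2 fold change was -0.98 ± 0.42 after the combination (SE, adjusted p = 0.351), -0.62 ± 0.42 after ERKi and -0.39 ± 0.41 after CDKi. Without the neuron-poor libraries the single-agent values of Postn were -0.22 after ERKi and 0.07 after CDKi. Without vehicle 5 they were -0.36 and -0.11, and without CDKi 4 the CDKi value was -0.61. Counts of Postn do not measure the activity of the transgene.

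Tnc encodes tenascin C, a hexameric matrix protein made at wounds and at the edge of growing tissue. It ran from 30.0 to 86.2 CPM in vehicle (median 48.8), from 19.7 to 54.9 CPM after ERKi (median 32.0), from 28.2 to 81.1 CPM after CDKi (median 34.3) and from 15.8 to 42.3 CPM after the combination (median 18.9). Of the 6 combination libraries, 5 lay below the lowest vehicle library. The log2 fold change was -1.22 ± 0.32 (SE, adjusted p = 0.123), and DESeq2, which called 272 genes in all, gave an adjusted p of 0.0181.

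Spp1 (osteopontin, a ligand of CD44 and of alpha-v integrins) and Sparc (a collagen-binding protein) had the highest levels per length and groups that overlapped. Spp1 ran from 685 to 1147 CPM in vehicle (median 729), from 171 to 762 CPM after ERKi (median 599), from 377 to 863 CPM after CDKi (median 626) and from 205 to 973 CPM after the combination (median 492). Its lowest vehicle library was above 5 of 6 combination libraries, yet the combination group also held the highest value outside vehicle. The log2 fold change of Spp1 was -0.70 ± 0.35 (SE, adjusted p = 0.450). Sparc averaged 4859 ± 1158 CPM in vehicle, 3395 ± 1362 after ERKi, 4144 ± 851 after CDKi and 3664 ± 1329 after the combination (SD, n = 6 each). Its log2 fold change was -0.41 ± 0.28 after the combination (SE, adjusted p = 0.614) and -0.52 ± 0.28 after ERKi (adjusted p = 0.672).

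**Figure D3:**
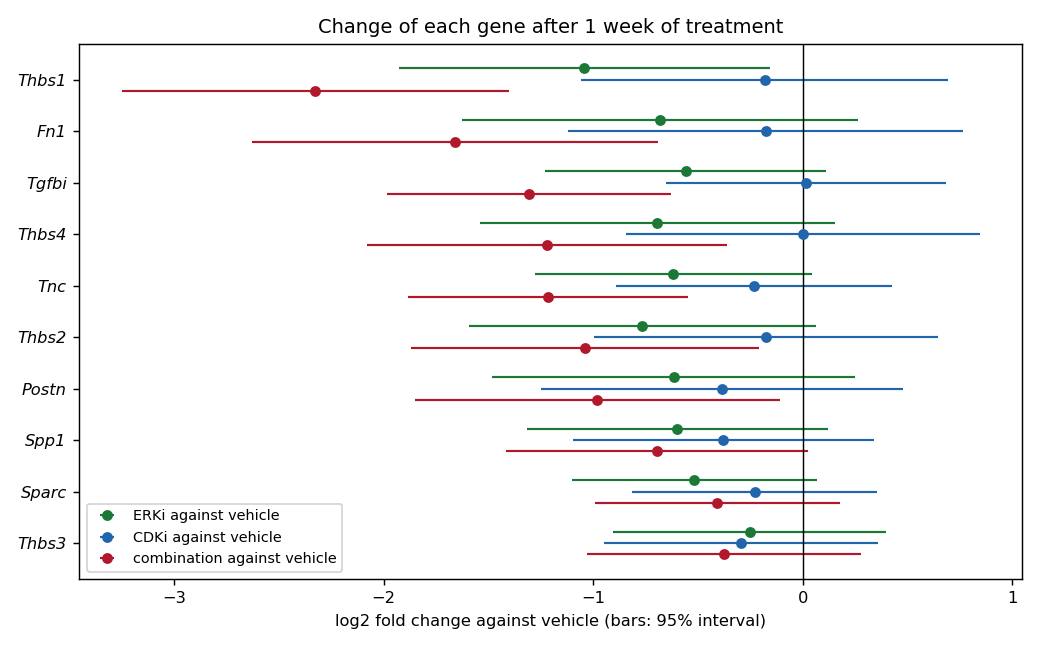
Log2 fold change against vehicle for each gene after ERKi (green), CDKi (blue) and the combination (red), with 95% intervals. The intervals were computed from the F statistic of the edgeR test, and the 3 comparisons share the 6 vehicle libraries. In the combination 7 of the 10 intervals lie wholly below 0, after ERKi 1 does (Thbs1), and after CDKi all 10 include 0.

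Side by side, the 10 genes were all lower than vehicle in the combination, with a median log2 fold change of -1.13 against 0.04 over all genes tested. Of these, 7 had an unadjusted p under 0.05, against 11.5% of all genes. After ERKi all 10 estimates were below 0 (median -0.62, against 0.00 over all genes), and 1 had an unadjusted p under 0.05 against 6.34% of genes. The 10 ERKi estimates kept their sign in all 40 alternatives. At their nearest to 0 they ran from -0.03 (Thbs3), -0.11 (Fn1) and -0.14 (Tgfbi) to -0.58 (Thbs1). No gene of the table was called by edgeR after ERKi (0%), and DESeq2 called 2 genes, none of them among the 10. After CDKi 9 of 10 estimates were below 0 with a median of -0.21. The Thbs4 estimate had the other sign in 22 of the 40 alternatives, and Thbs2, Postn and Tnc were above 0 (0.03, 0.07 and 0.09) without the neuron-poor libraries. After CDKi none had an unadjusted p under 0.05 against 3.12% of genes. edgeR called no gene after CDKi (0%) and DESeq2 called 30, none among the 10. limma-voom called no gene in either single-agent comparison.

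Against ERKi alone, the combination gave lower estimates for 9 of the 10 genes, Sparc being the exception at 0.11, and unadjusted p under 0.05 for Thbs1, Tgfbi and Fn1 (9.34% of all genes). None of the 10 was called there by edgeR (0% of genes called), by limma-voom or by DESeq2. Against CDKi alone, all 10 estimates were lower and 6 had an unadjusted p under 0.05 (7.07% of genes). edgeR called none of the 10 in that comparison (0.0065% of genes called). There limma-voom called Thbs1 (adjusted p = 0.0425) among 4 genes in all. DESeq2 called Thbs1 (adjusted p = 0.000555) and Tgfbi (adjusted p = 0.0171) among 84 genes in all.

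Whether the 2 drugs together gave more than the sum of their log2 effects was asked by the interaction term. For Thbs1 it was -1.10 ± 0.60 (SE, 95% interval -2.35 to 0.14, adjusted p = 0.988), for Fn1 -0.80 ± 0.64 and for Tgfbi -0.76 ± 0.45. Without CDKi 3 the interaction was -0.37 for Fn1 and -0.50 for Tgfbi. None of the 10 interactions had an unadjusted p under 0.05 (3.69% of genes), and edgeR and limma-voom called no gene (0%), DESeq2 51 genes, none among the 10. Over the 12 libraries with ERKi against the 12 without, Thbs1 had a log2 difference of -1.59 ± 0.30 (SE, adjusted p = 0.104). In that comparison 6 of the 10 genes had an unadjusted p under 0.05 against 9.54% of genes, and none was called (0%). DESeq2 called Thbs1 (adjusted p = 0.000173) and Tgfbi (adjusted p = 0.0221) among 90 genes in all. In limma-voom Thbs1 was called (adjusted p = 0.0245) among 5 genes in all. Over the 12 libraries with CDKi against the 12 without, Thbs1 had a log2 difference of -0.73 ± 0.30 (adjusted p = 0.573), the 1 gene of the 10 with an unadjusted p under 0.05 (7.69% of genes). None of the 10 was called there by edgeR (0%), limma-voom or DESeq2.

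Receptors of these proteins were examined next. Of 23 receptor genes tested, 21 were lower in the combination than in vehicle, with a median log2 fold change of -0.34, and none was called. Itgb3, the beta subunit of the vitronectin receptor, had the smallest p (-1.66 ± 0.38, SE, adjusted p = 0.0770). Itga9, which pairs with beta-1 to bind tenascin C and osteopontin, followed at -0.71 ± 0.17 (adjusted p = 0.0839). The thrombospondin receptors Cd47 and Cd36 had values of -0.15 and -0.09, and the osteopontin receptor Cd44 had -0.35. These 3 were named after their values were seen.

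Among 26 other matricellular genes tested of 29 listed, 15 were lower in the combination and 11 higher, with a median of -0.13 and none called. Wisp1, of the CCN family, stood at -1.06 ± 0.29 (log2 fold change, SE, adjusted p = 0.123). Of 9 genes of TGF-beta ligands, receptors and regulators, 5 were lower and 4 higher, none called. In that list Lrrc32, which tethers latent TGF-beta, stood at 0.88 ± 0.45 (adjusted p = 0.464) and Tgfb3 at 0.34 ± 0.20 (adjusted p = 0.526). Of 12 tested genes known to follow ERK activity, 10 were lower after ERKi (median -0.25, none called) and all 12 in the combination (median -0.78). Etv4 (-1.60 ± 0.24, adjusted p = 0.0169) and Spry4 (-1.66 ± 0.33, adjusted p = 0.0399) were the 2 called in the combination, named after their values were seen.

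Between libraries of one group, the 10 genes varied in the same direction, some pairs only weakly. Over the 24 libraries, with each group's mean removed, the 45 pairs had Pearson r from 0.22 to 0.90 with a median of 0.56, and 6 pairs were above 0.8. The 6 were Thbs4 with Fn1 (0.90), Tgfbi with Fn1 (0.88), Thbs1 with Tgfbi (0.84), Thbs1 with Fn1 (0.84), Thbs1 with Thbs4 (0.82) and Spp1 with Sparc (0.82). These correlations are a description over libraries that share depth, dissection and cell make-up, and genes in them are not independent. No r of pairs drawn from other genes is given for comparison, so nothing particular to these genes is read from them. ERKi 3 was the lowest of its group for 9 of the 10 genes. No r here or below was computed without that library.

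Between libraries, several of these genes varied with the nerve fibroblast or the myelin list, among 11 cell type lists examined. With the mean of 10 nerve fibroblast genes (among them Pdgfra, Col1a1, Dcn and Lum), r was 0.90 for Thbs4, 0.89 for Fn1, 0.83 for Thbs1 and 0.77 for Tgfbi. With the mean of 10 myelin genes (among them Mbp and Prx), r was 0.93 for Spp1, 0.86 for Sparc and 0.66 for Thbs3. Tnc had no r above 0.41 with any of the 11 cell type lists. Thbs2 was highest with the list of repair and non-myelinating Schwann cell genes (0.56). Its r was 0.50 with the myelin list and 0.38 with the nerve fibroblast list. Of the lists of related genes, that of receptors had an r of 0.86 with Thbs1, 0.75 with Fn1 and 0.74 with Thbs4. Its r was 0.72 each with Tgfbi, Thbs2 and Postn, and from 0.39 (Tnc) to 0.63 (Sparc) with the rest. The list of genes known to follow ERK activity had an r of 0.74 with Tgfbi, 0.69 with Thbs1 and 0.59 with Fn1. It was 0.49 with Tnc, 0.46 with Thbs4, and from -0.07 (Spp1) to 0.24 (Postn) with the rest. None of the 10 genes belongs to the nerve fibroblast or the myelin list.

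**Figure D4:**
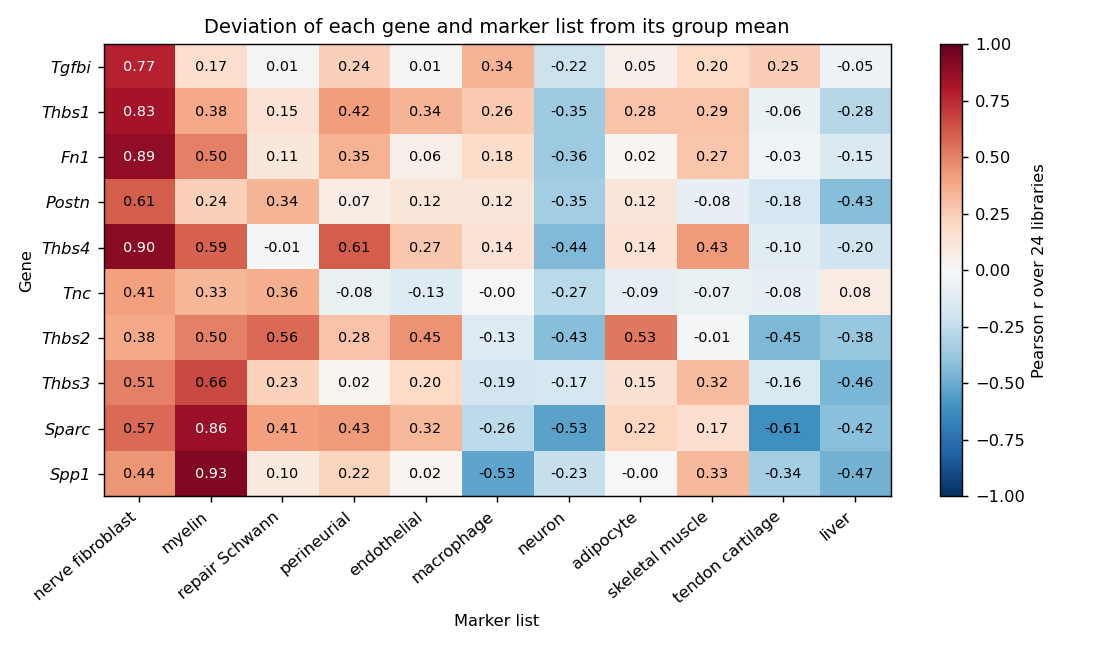
Pearson r, over 24 libraries, between each gene (rows) and the mean of each marker list (columns), both as log2 CPM with the group mean removed; red is positive and blue negative. Tgfbi, Thbs1, Fn1, Postn and Thbs4 are highest with the nerve fibroblast list, and Spp1, Sparc and Thbs3 with the myelin list. Thbs2 is highest with the repair Schwann list (0.56), and Tnc, more weakly, with the nerve fibroblast list (0.41).

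The level of the nerve fibroblast and myelin lists in each group is given here beside the results, and their part in them was not tested. The nerve fibroblast list averaged 6.82 ± 0.28 log2 CPM in vehicle (SD, n = 6; range 6.47 to 7.26), 6.30 ± 0.61 after ERKi (5.41 to 6.86; 6.48 without ERKi 3), 6.75 ± 0.65 after CDKi (5.69 to 7.48) and 6.28 ± 0.52 after the combination (5.42 to 6.91). Its 10 genes had a median log2 fold change of -0.44 in the combination, 7 of them lower and none called. They did not move as a set: their values ran from -1.82 to 1.49, with 3 genes higher. The myelin list averaged 9.31 ± 0.20 in vehicle (9.06 to 9.61), 8.83 ± 0.81 after ERKi (7.31 to 9.47; 9.14 without ERKi 3), 9.22 ± 0.40 after CDKi (8.68 to 9.90) and 8.76 ± 0.77 log2 CPM after the combination (7.48 to 9.35). Its 10 genes were all lower in the combination (median -0.38), none called. In bulk tissue, fewer cells of a type and less RNA per cell cannot be told apart.

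With the nerve fibroblast list as a covariate, the log2 fold change of Thbs1 in the combination was -1.78 (adjusted p = 0.0178), against -2.33 without it. In the same fit Fn1 went from -1.66 to -0.91, Thbs4 from -1.22 to -0.60, Tgfbi from -1.31 to -0.83 and Postn from -0.98 to -0.47, none of these 4 called. With the myelin list as a covariate, Sparc went from -0.41 to -0.03 and Spp1 from -0.70 to -0.30, while Thbs1 kept -2.02 but not its call (adjusted p = 0.151). The covariates were chosen after seeing the data, and they are themselves measured in the treated nerves. The nerve fibroblast list holds Col1a1, which had an r of 0.92 with Fn1 with group means removed. Likewise the myelin list holds Pmp22, with an r of 0.96 with Spp1. Both were named after their values were seen.

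Values of other cell type lists are given beside these results, and their part was not tested. The 8 endothelial genes were all higher in the combination (median 0.79), and 10 adipocyte genes were all higher (median 0.88), none called in either list. The endothelial median was 0.08 after ERKi and 0.27 after CDKi, and the adipocyte median 1.37 and 1.92. Macrophages are a known source of osteopontin, and of 10 macrophage genes 7 were lower (median -0.08). Between libraries, with group means removed, Spp1 had an r of -0.53 with the macrophage list. Of 10 muscle genes 9 were higher (median 2.93), and the median was 2.77 after ERKi and 4.33 after CDKi. In the combination group, only combination 1, 3 and 4 had a muscle list mean (2.27, 1.49 and 2.72 log2 CPM) above the vehicle range (-1.11 to 0.13). With the muscle list as a covariate Thbs1 was called as before.

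For each gene the transcripts most like it were found among 12636 others by r over the 24 libraries with group means removed. Thbs1 was most like S1pr2 (0.90), Gli3 (0.88) and Pcolce (0.87), and Fn1 most like Adamts2 (0.95), Mmp2 (0.94) and Pcolce (0.93). Thbs4 was most like Cd248 (0.95), Gpc3 (0.94) and Prelp (0.93), and Tgfbi most like Cd34, Col8a1 and Gcg (0.92 each). Several of these are known from fibroblasts and their matrix: Pcolce and Adamts2 act in collagen maturation and Mmp2 is a gelatinase. Postn was most like Serpine2 (0.94), Itih5 (0.85) and Capn6 (0.85), and Thbs2 most like Serinc5 (0.90), Sostdc1 (0.87) and Itgb8 (0.86). Spp1 was most like Smco3 (0.97), Ugt8a and Pla2g16 (0.96 each), of which Ugt8a makes the galactolipids of myelin. Sparc was most like Emp2 (0.96), Tmbim1 and Cyfip1 (0.94 each), and Thbs3 most like Pcdhga8, P3h3 and Tnxb (0.87 each). Tnc had the weakest neighbours, Fam20c (0.80), Alpl and Lrrn2 (0.78 each).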

How the data were processed

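RNA was extracted from sciatic nerve and made into libraries after removal of ribosomal RNA, per the labels' protocols; the labels also name the molecule as polyA RNA, which differs from that step. The deposited values are raw counts per gene symbol; the submitters' processing notes name FastQC, STAR, DESeq2 and the build mm10, without versions. Counts were used as deposited. edgeR 4.0.16 in R 4.3.3 was run with filterByExpr (minimum count 10, total 15), TMM scaling, 1 mean per group over all 24 libraries and the robust quasi-likelihood test (20 residual degrees of freedom). P-values were adjusted by Benjamini-Hochberg over 15385 genes, with a threshold of 0.05, for 8 comparisons. The SE of an edgeR fold change was computed as its absolute log2 value divided by the square root of the test's F statistic. The 95% intervals use that SE and a t quantile with 20 degrees of freedom. CPM are TMM-scaled, log2 CPM have a prior count of 2, and levels per kb divide by the union of GENCODE exons.

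The members and lists were chosen with earlier results of these data known. Named genes were all members, the called or 2 lowest-p genes of 3 related lists, and 3 most alike genes per member; exceptions are stated, and 1 gene that the rule names is not reported here. Promoter windows were taken at the RefSeq start nearest the GENCODE start, a choice made, like the addition of the CArG box, after a first motif search. Alternatives were DESeq2 1.42.0, limma-voom 3.58.1, other scalings, filters, terms and left-out libraries. On simulated counts for the combination against vehicle, 39.9% of 198 genes changed 2-fold and 86.4% of those changed 3-fold were recovered. Those counts were drawn gene by gene from a single mean profile and the trended dispersion, without differences in cell make-up between libraries. The recovered shares hold for that setting and were not measured for the 10 genes. No pair of libraries within a group agreed within sampling noise (lowest chi-square per degree of freedom 19.5).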

Additional observations from a re-analysis of the deposited data

Results flagged for a closer look

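Thbs3 in ERKi 3 stood apart from the other 5 libraries of its group, at 1.64 log2 CPM where the nearest library had 3.66. It was the 1 of 40 gene and group combinations that met this test, which by chance flags about 1 in 20. ERKi 3 is also 1 of the 3 libraries with liver transcripts and had the highest neuronal list mean of all 24 (9.63 log2 CPM); their part in the low value was not tested.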

How the results depend on the processing

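Of the 10 genes in 8 comparisons, 1 fold change was called, Thbs1 in the combination against vehicle, and it reversed in no alternative. Estimates that were not called changed sign in places. Thbs4 after CDKi did so in 22 alternatives, the Postn interaction in 18 and Tgfbi after CDKi in 10. Title number series stands for the first digit of the 4-digit sample title, whose meaning the labels do not give. It was 4 in vehicle 1 and 2, ERKi 1 to 4, CDKi 1 to 3 and combination 1 to 3, and 5 elsewhere. In the combination against vehicle the number of the 10 genes called went from 1 to 4 with DESeq2 (272 genes called in all, against 19), to 3 without the libraries with liver transcripts (108 genes) and to 0 with no low count filter (6 genes), with a term for title number series (16 genes), without the neuron-poor libraries (0 genes), without the deepest and shallowest libraries (1 gene) and with the myelin list as covariate (4 genes). Leaving out 1 library gave 0 to 1 of the 10 and 0 to 94 genes in all; Thbs1 lost its call without vehicle 1, 2, 3, 5 or 6, ERKi 1 or 4, CDKi 4, 5 or 6, or combination 1, 2, 4, 5 or 6. Other settings that moved the count of 19 genes by over 1.5 times were limma-voom (29), the 2 groups alone (10), the neuron list (38) or nerve fibroblast list (2) as covariate and a term for Y-linked transcripts (43).

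In the combination against CDKi, none of the 10 was called as reported; 2 were with DESeq2 (84 genes in all), 1 with limma-voom (4 genes) and 1 with the nerve fibroblast list as covariate (2 genes), and leave-one-out fits gave 0 to 1 (Thbs1, without ERKi 3 or combination 3). For the 12 libraries with ERKi against the 12 without, DESeq2 called 2 (90 genes) and limma-voom 1 (5 genes), and leave-one-out fits gave 0 to 1 (Thbs1, without ERKi 6 or combination 3). The causes were not tested. The nerve fibroblast, myelin and skeletal muscle covariates were chosen after seeing the data; the muscle covariate moved no count of the 10 genes. Where edgeR called no gene, DESeq2 called 2 after ERKi, 30 after CDKi, 35 in the combination against ERKi, 51 for the interaction and 22 for CDKi over 12 against 12, none of them among the 10 genes. No paired analysis was possible because the labels give no replicate numbers shared between groups.

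The lowest count of the 10 genes in a library was 48 (Thbs3 in ERKi 3). The spread between libraries was the larger part of their error, with a biological coefficient of variation of 33.6% (Sparc) to 53.2% (Fn1).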
